A study of Homo sapiens with 30 samples.

Results

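TFCP2L1, its close relatives TFCP2 and UBP1, the grainyhead factors GRHL1 and GRHL2, and the cadherins CDH16, CDH1 and CDH2 were followed through a nascent transcription series in A549, a cell line from a human lung adenocarcinoma. These 8 genes were taken by name from the 58780 genes of the deposited count table. TFCP2L1 and CDH16 were chosen by their fold change after dexamethasone for 3 h against untreated cells, so those libraries give their values as a description only, and no gene of the set was tested in that comparison. The other 6 genes are relatives of these 2 in the CP2, grainyhead and cadherin families.

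The assay was precision run-on sequencing (PRO-seq), in which engaged RNA polymerases in permeabilised cells extend their transcripts, and the RNA they extend is sequenced as a measure of ongoing transcription. Dexamethasone (Dex) is a synthetic glucocorticoid and was given at 100 nM. Both inhibitors block enzymes that methylate arginine: GSK591 acts on PRMT5 and MS023 on the Type I enzymes, and each was given at 1 µM. There were 15 groups of 2 libraries. Untreated cells and Dex alone, at 15 min and at 3 h, made 3 groups. Each inhibitor had 6 groups: the inhibitor without Dex at 2, 4 and 7 days, 7 days of it and then Dex for 15 min or 3 h, and 3 h of Dex and inhibitor given at once. The untreated group is labelled with a time of 15 min, so the longer treatments have no untreated libraries of their own time. All groups, untreated cells included, were labelled with 0.01% DMSO, and all used this 1 cell line. The labels do not say whether replicates were separate cultures, so the p-values measure the spread between these libraries, which may be technical.

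TFCP2L1, TFCP2 and UBP1 form the CP2 branch of a family of DNA-binding factors, and the GRHL genes form its grainyhead branch. TFCP2L1 is known from the collecting duct of the kidney and from naive pluripotent stem cells, whereas TFCP2 and UBP1 are expressed in most tissues. Grainyhead factors keep epithelial genes active, CDH1 among them. Cadherins are calcium-dependent adhesion proteins: CDH1 (E-cadherin) joins epithelial cells, CDH2 (N-cadherin) is typical of neural and mesenchymal cells, and CDH16 (kidney-specific cadherin) is typical of renal tubule and thyroid epithelium.

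RefSeq promoter windows (GRCh38.p14, 250 bases before to 50 bases after the start site) were matched for 5 of the 8 genes: TFCP2L1, TFCP2, UBP1, GRHL1 and CDH2. The windows of the CP2 branch are shown because its members parted under Dex: TFCP2L1 was called higher at 3 h after either inhibitor and its 2 relatives were not called. They are written 5′ to 3′ on the strand of the gene, which is the minus strand for all of them, at chr2:121285153-121285452 for TFCP2L1, chr12:51173086-51173385 for TFCP2 and chr3:33440356-33440655 for UBP1. Capitals mark E2-boxes in the TFCP2L1 window and matches to a tandem CP2 pattern, defined below, in the other 2.
TFCP2L1: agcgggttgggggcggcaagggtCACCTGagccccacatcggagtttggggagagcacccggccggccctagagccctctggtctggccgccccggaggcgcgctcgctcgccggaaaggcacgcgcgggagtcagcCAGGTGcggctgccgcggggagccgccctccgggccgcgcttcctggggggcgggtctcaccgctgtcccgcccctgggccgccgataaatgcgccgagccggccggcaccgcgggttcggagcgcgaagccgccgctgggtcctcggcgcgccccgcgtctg
TFCP2: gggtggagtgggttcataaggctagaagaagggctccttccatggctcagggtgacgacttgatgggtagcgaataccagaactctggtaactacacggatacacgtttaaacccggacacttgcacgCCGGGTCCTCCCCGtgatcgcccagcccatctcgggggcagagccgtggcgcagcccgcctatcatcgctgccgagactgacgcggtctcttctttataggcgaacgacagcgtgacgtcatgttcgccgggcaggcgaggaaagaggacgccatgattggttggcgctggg
UBP1: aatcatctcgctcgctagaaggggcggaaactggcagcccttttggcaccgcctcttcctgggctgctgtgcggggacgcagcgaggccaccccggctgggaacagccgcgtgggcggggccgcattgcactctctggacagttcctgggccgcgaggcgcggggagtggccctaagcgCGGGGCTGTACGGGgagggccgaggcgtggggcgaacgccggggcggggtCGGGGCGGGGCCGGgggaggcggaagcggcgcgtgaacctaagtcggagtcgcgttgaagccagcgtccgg
Both strands were searched for the E2-box CAGGTG, the sequence bound by cadherin repressors of the SNAI and ZEB families. They were also searched for a tandem CP2 pattern, taken here as the word CCNG repeated in the same direction after 6 free bases. Forms of the CP2 site with other letters were not searched. The TFCP2L1 window held 2 E2-boxes, with first bases at -227 and -113 relative to the start site, and 20.6% of 35116 windows of this length held at least 1. The TFCP2 window held 1 match to the tandem CP2 pattern and the UBP1 window held 2, against 39.4% of all windows with at least 1. None of the 3 windows held the glucocorticoid receptor hexamer AGAACA (14.8% of all windows), the palindrome of 2 such hexamers with 3 free bases between them (1 of 35116 windows) or the grainyhead element AACCNGTT (1.73%). The GRHL1 window and both CDH2 windows held no match to any of these elements. A match is a run of letters and not a measured binding site, and these windows leave out distal sites.

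Libraries held 8441211 to 13069598 counts, of which 58.7% to 78.7% fell on mitochondrial genes, which left 2541528 to 3957508 counts on all other chromosomes. The mitochondrial share was 58.7% to 66.1% in the 10 libraries of MS023 for 2 to 7 days and 61.0% in replicate 2 of Dex with MS023, and 68.5% or more in the other 19 libraries. Levels are given as counts per 1000000 counts (CPM), scaled by the trimmed mean of M-values (TMM), which sets the bulk of genes equal between libraries. Scaling by total counts alone would move the median log2 fold change of all genes to 1.02 for MS023 at 7 days against untreated cells, so all changes with MS023 are relative to the other genes. Of the epithelial markers, KRT8 was at 157 to 456 CPM and KRT18 at 56.5 to 189 CPM. KRT19 (6.34 to 33.8 CPM), MUC1 (3.32 to 19.0 CPM) and EPCAM (0.957 to 6.19 CPM) were lower but detected in every library. Of the markers of other cell types, the leukocyte genes PTPRC and CD3E were at 0 in 13 and 21 libraries and the fibroblast gene DCN in 15. The endothelial genes PECAM1 and VWF were at 0 in only 1 and 5 libraries and reached 1.15 and 1.26 CPM. The collagen gene COL1A2 was at 0 in 4 and reached 2.20 CPM, while COL1A1 was at 2.41 to 8.24 CPM in all, a range that overlaps that of EPCAM. The known Dex target PER1 rose by 2.72 on the log2 scale at 3 h of Dex after GSK591 and by 2.49 after MS023.

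Nascent TFCP2L1 transcription was high in every library that had received Dex for 3 h and low in every other. TFCP2L1 (ENSG00000115112.7, chr2:121216587-121285207, minus strand, GENCODE 29 on GRCh38) was at 1.70 to 4.02 CPM, with a median of 2.72, in the 14 libraries without Dex. The 6 libraries with Dex for 15 min lay at 2.90 to 5.59 CPM, and the 10 libraries with Dex for 3 h at 26.6 to 36.8 CPM, with a median of 32.6. The 3 h libraries did not overlap the other 20 libraries, while the 15 min range overlapped that without Dex. Untreated cells and Dex alone for 3 h chose the gene, so the separation of their libraries is a description only. The share of all genes with such a division was not counted. The counts behind these values were 16 to 38 without Dex and 232 to 474 at 3 h. In such bulk libraries more transcription per cell and more transcribing cells cannot be told apart.

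Untreated libraries had 1.78 and 2.32 CPM of TFCP2L1, and libraries with Dex alone for 3 h had 28.2 and 34.7 CPM. This difference, 3.92 ± 0.20 (log2 fold change ± SE), chose the gene and is given without a test, in a comparison that called 10.5% of all genes. In libraries that took no part in that choice, TFCP2L1 was at 3.25 and 3.75 CPM after GSK591 for 7 days and at 28.3 and 26.6 CPM when Dex followed for 3 h, a rise of 2.97 ± 0.19 (7.85-fold, adjusted p = 3.46e-17, by the quasi-likelihood test of edgeR, adjusted over 22919 genes by Benjamini-Hochberg). After MS023 for 7 days it was at 2.27 and 2.32 CPM, and at 34.7 and 34.4 CPM when Dex followed for 3 h, a rise of 3.91 ± 0.18 (15.0-fold, adjusted p = 5.48e-23). In both comparisons each Dex library exceeded both libraries without Dex, as the plot of TFCP2L1 and CDH16 by group shows.

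**Figure D1:**
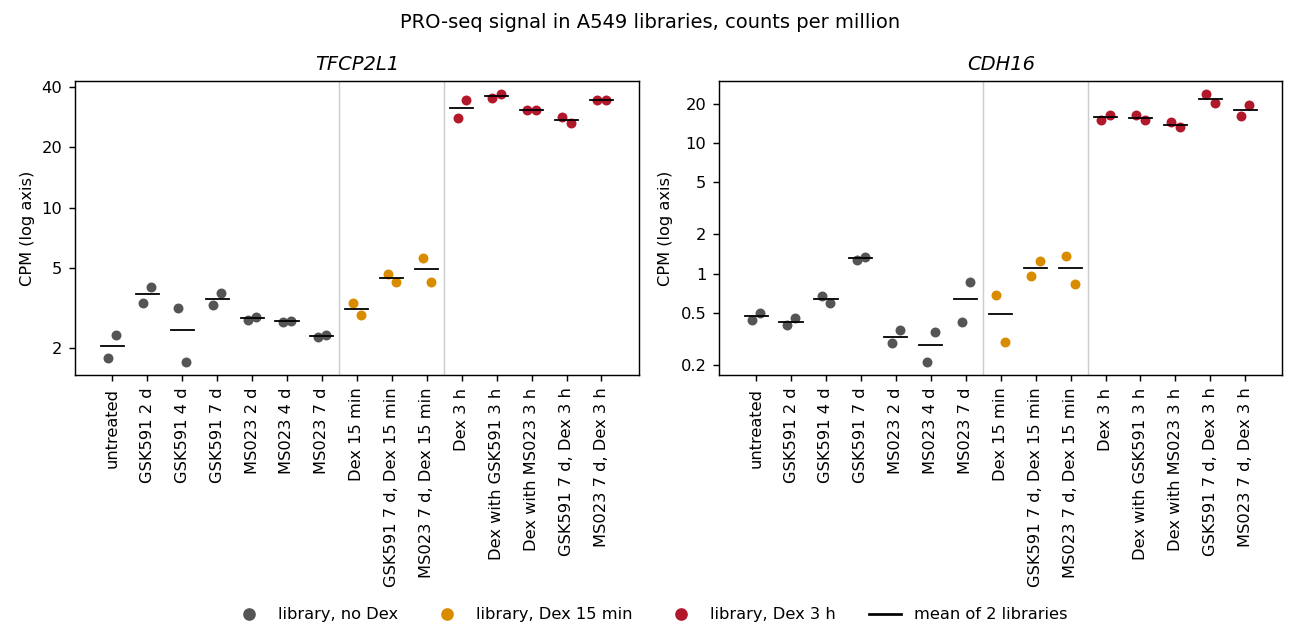
TFCP2L1 and CDH16 in CPM (log axis) in each of the 30 libraries, by group; points are libraries, coloured by Dex time, and black lines are means of 2 libraries. The 10 libraries with Dex for 3 h lie at 26.6 to 36.8 CPM for TFCP2L1 and 13.2 to 23.5 CPM for CDH16, above all other libraries. Untreated cells and Dex alone for 3 h chose both genes.

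The 3 h response of TFCP2L1 was numerically smaller after GSK591 than after MS023, by 0.94 ± 0.29 on the log2 scale, but that difference did not pass the test (adjusted p = 0.288; 18 of 22919 genes, 0.0785%, passed it). Against the response without inhibitor, described without a test, the values were -0.95 ± 0.32 after GSK591 and -0.01 ± 0.29 after MS023. After GSK591 the level before Dex was 3.50 ± 0.35 CPM (SD, n = 2) against 2.05 ± 0.38 in untreated cells, and the level after Dex was 27.5 ± 1.2 CPM against 31.4 ± 4.6. Inhibitors given together with Dex for 3 h left TFCP2L1 at 35.4 and 36.8 CPM with GSK591 and at 30.8 and 30.6 CPM with MS023. The difference between these 2 groups, 0.23 ± 0.14, did not pass the test (adjusted p = 0.493), and no member was called there, beside 0.048% of all genes. Long against short GSK591 under Dex gave -0.39 ± 0.14 (adjusted p = 0.0538, and 0.0225 when those 2 groups were fitted alone), and long against short MS023 gave 0.17 ± 0.14 (adjusted p = 0.428).

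At 15 min of Dex, TFCP2L1 was at 5.59 and 4.24 CPM after MS023, above both MS023 libraries without Dex, with a rise of 1.10 ± 0.22 (adjusted p = 0.00145). This call was lost without replicate 1 of MS023 followed by Dex for 15 min (0.90, adjusted p = 0.110) and with total counts as the only scaling (0.97, adjusted p = 0.248). After GSK591 it was at 4.64 and 4.23 CPM at 15 min, and the difference of 0.34 ± 0.25 did not pass the test (adjusted p = 0.591). TFCP2L1 was the 1 called gene of the set in either 15 min comparison, in which 2.07% of all genes were called after MS023 and 2.09% after GSK591. Without inhibitor the 15 min libraries were at 3.36 and 2.90 CPM, described without a test. Of the 5 genes tested there, 0 were called, beside 1.26% of all genes.

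CDH16 (ENSG00000166589.12, chr16:66908122-66918984, minus strand) showed the same division of libraries. It had 3 to 12 counts (0.213 to 1.34 CPM) in the 14 libraries without Dex, 0.300 to 1.38 CPM in the 6 with Dex for 15 min, and 132 to 265 counts (13.2 to 23.5 CPM) in the 10 with Dex for 3 h. The 3 h libraries did not overlap the others, which for untreated cells and Dex alone for 3 h follows from the choice of the gene. As for TFCP2L1, how many of all genes divide in this way was not counted. Untreated cells had 0.445 and 0.504 CPM and Dex alone for 3 h gave 15.1 and 16.2 CPM, a log2 fold change of 5.01 ± 0.31 that is a description.

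After GSK591, CDH16 was at 1.28 and 1.34 CPM without Dex and at 23.5 and 20.1 CPM with Dex for 3 h, a rise of 4.05 ± 0.26 (16.5-fold, adjusted p = 3.45e-17). After MS023 it was at 0.425 and 0.869 CPM without Dex and at 16.0 and 19.6 CPM with it, a rise of 4.76 ± 0.26 (27.1-fold, adjusted p = 6.48e-20). The latter value ranged from 4.35 to 5.35 over the fits that left out 1 library, and the 2 MS023 libraries without Dex held 6 and 12 counts. The 2 responses differed by -0.72 ± 0.46, GSK591 minus MS023, which did not pass the test (adjusted p = 0.804). At 15 min neither difference passed the test, with 0.78 ± 0.40 after MS023 (adjusted p = 0.512) and -0.21 ± 0.42 after GSK591 (adjusted p = 0.893). In the 7 genes that passed the filter on low counts, TFCP2L1 and CDH16 were thus the 2 called at 3 h after each inhibitor, where 9.85% of all genes were called after GSK591 and 11.1% after MS023.

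Long and short inhibition under Dex were also compared for CDH16. It was at 16.2 and 14.9 CPM when GSK591 was given with Dex and at 14.4 and 13.2 CPM when MS023 was. These levels lay below those after 7 days of the same inhibitor, by 0.49 ± 0.18 for GSK591 (adjusted p = 0.0603, and 0.0248 with those 2 groups fitted alone) and by 0.37 ± 0.18 for MS023 (adjusted p = 0.149). For TFCP2L1 the GSK591 difference had the opposite sign and the MS023 difference the same sign. Neither gene passed the test here, and the difference between the genes was not tested.

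The measure of likeness was Pearson's r of log2 CPM over the 30 libraries, among the 11117 genes whose mean level reached 5 CPM. CDH16 was the gene most like TFCP2L1 (r = 0.968), followed by the actin-severing protein gene GSN (0.966) and the ethanolamine kinase gene ETNK2 (0.953). For CDH16 the nearest were the small GTPase gene RRAD (0.972), TFCP2L1 (0.968) and the receptor tyrosine kinase gene TYRO3 (0.950). These values are a description: the 30 points share 15 groups and, for TFCP2L1 and CDH16, the division into libraries with and without 3 h of Dex. Both genes were chosen for their rise at 3 h of Dex, so a high r between them follows in part from that choice.

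**Figure D2:**
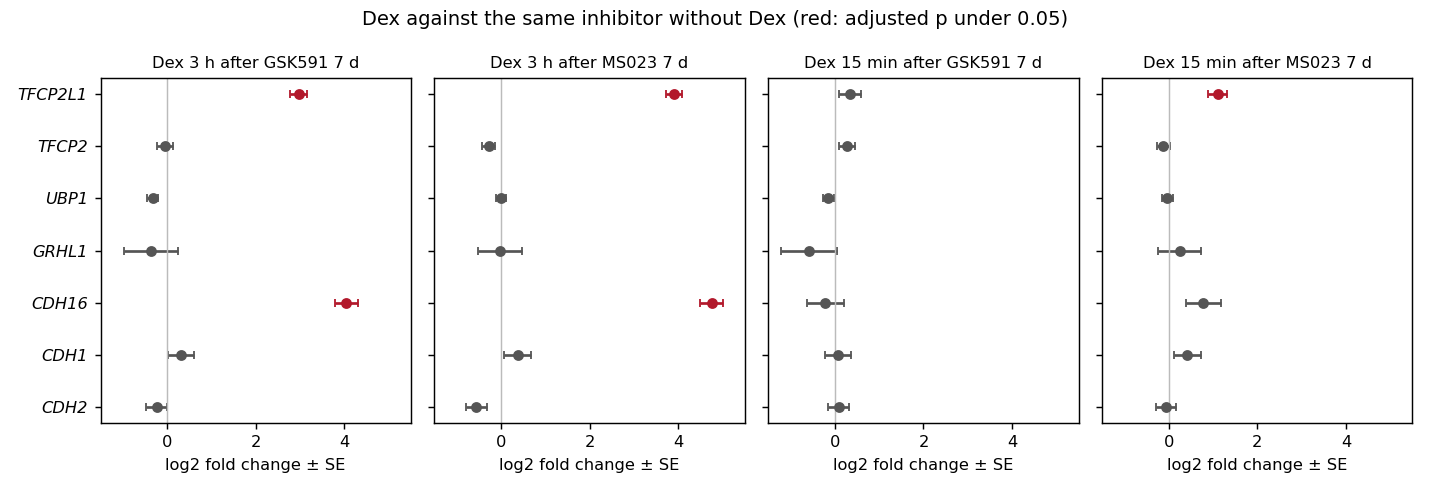
Log2 fold change ± SE of the 7 tested genes at 3 h and 15 min of Dex, each against 7 days of the same inhibitor without Dex; red points passed an adjusted p of 0.05. TFCP2L1 (2.97 and 3.91) and CDH16 (4.05 and 4.76) stand to the right at 3 h, while the other 5 genes lie within -0.55 and 0.38 there.

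TFCP2 and UBP1, the relatives of TFCP2L1, were not called at 3 h of Dex. TFCP2 (ENSG00000135457.9, chr12:51093663-51173134, minus strand) ranged from 8.60 to 15.6 CPM over all 30 libraries, with ranges of 9.68 to 15.6 without Dex and 8.60 to 13.7 at 3 h that overlapped. Its 3 h values were -0.05 ± 0.18 after GSK591 (adjusted p = 0.914) and -0.28 ± 0.15 after MS023 (adjusted p = 0.278), and -0.51 ± 0.17 against untreated cells as a description. TFCP2 passed the test in 1 of 22 comparisons. That was MS023 at 7 days (15.4 and 14.4 CPM) against 2 days (9.68 and 11.3 CPM), at 0.51 ± 0.16 (adjusted p = 0.0269; 13.2% of all genes were called). The call was lost with DESeq2 (adjusted p = 0.0930) and in each of the 4 fits that left out 1 library (0.40 to 0.62, adjusted p = 0.0527 to 0.259).

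UBP1 (ENSG00000153560.11, chr3:33388336-33441371, minus strand) was at 30.7 to 48.4 CPM, and the 3 h libraries (30.7 to 41.3 CPM) overlapped those without Dex (33.3 to 48.4 CPM). It passed the test in 0 of 22 comparisons, with log2 fold changes between -0.32 and 0.18, and 1 of the 22 had an unadjusted p under 0.05. That comparison was Dex for 3 h after GSK591 (-0.32 ± 0.12, adjusted p = 0.101), in which the 2 GSK591 libraries without Dex lay apart at 48.4 and 35.6 CPM. Without replicate 2 of these GSK591 libraries the value was -0.52 (adjusted p = 0.0146), and without replicate 1 it was -0.08.

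GRHL1 (ENSG00000134317.17, chr2:9951693-10002277, plus strand) had 4 to 30 counts per library (0.441 to 2.14 CPM). It passed the test in 0 of 22 comparisons, with 1 unadjusted p under 0.05 and log2 fold changes from -0.91 to 0.95. The largest was MS023 at 4 days (1.78 and 2.14 CPM) against untreated cells (1.11 and 0.907 CPM), at 0.95 ± 0.47 (adjusted p = 0.186). At these counts the standard errors of its log2 fold changes reached 0.80, so small changes were not detectable at this depth.

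GRHL2 (ENSG00000083307.11, chromosome 8) was close to silent in the count table, with 0 to 12 counts per library and 0 in 12 of the 30. It did not pass the filter on low counts and has no test. Its counts were not spread evenly over the groups: the 6 libraries of untreated cells and Dex alone had 1 count in all and the 4 of Dex with either inhibitor had 1. The 10 libraries of GSK591 for 2 to 7 days, with or without Dex, had 16 counts (0.182 CPM as a sum of counts over a sum of effective library sizes), and the 10 of MS023 had 42 (0.325 CPM). All 8 libraries with MS023 for 4 or 7 days had 2 to 12 counts. In the untreated group, 0 counts allow up to 3 counts over its 2 libraries, which covers counting error only. An exon of an opposite-strand gene, AP001207.3, overlaps those of GRHL2 by 50 bases. Whether counting used strand is not given in the sources used here, so reads of the 2 genes may not have been told apart.

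**Figure D3:**
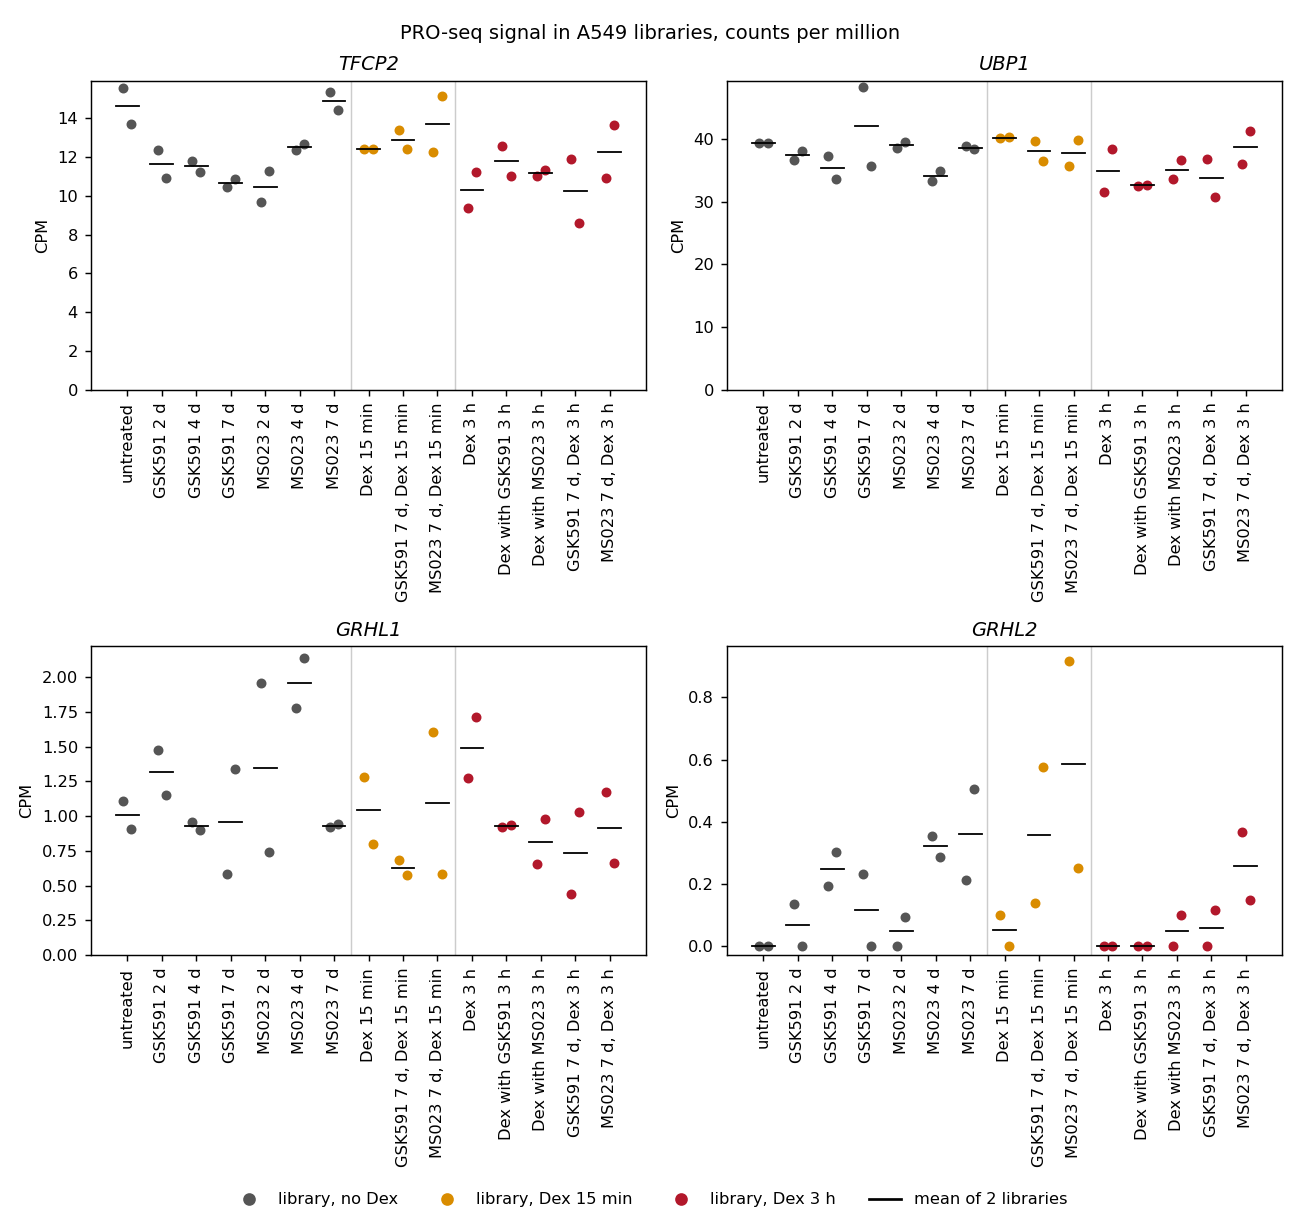
TFCP2, UBP1, GRHL1 and GRHL2 in CPM in each of the 30 libraries, by group; points are libraries, coloured by Dex time, and black lines are means of 2 libraries. The 3 h libraries overlap the others for all 4 genes, and GRHL2 is at 0 in 12 libraries.

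GRHL3 (ENSG00000158055.15, chr1:24319322-24364482, plus strand), the grainyhead gene outside the set, is given for reference. It had 5 to 37 counts per library and was higher after GSK591 at 4 days (2.50 and 2.31 CPM) than in untreated cells (0.779 and 1.01 CPM), by 1.41 ± 0.46 (adjusted p = 0.0262). After 7 days of GSK591 (2.09 and 2.81 CPM) the value was 1.43 ± 0.47 (adjusted p = 0.0351). With DESeq2 both calls were lost (adjusted p = 0.0909 and 0.110), as they were in each fit that left out 1 library.

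CDH1 transcription rose at 4 and 7 days of GSK591, and no comparison with and without Dex called it. CDH1 (ENSG00000039068.18, chr16:68737225-68835548, plus strand) ranged from 1.00 to 6.65 CPM (10 to 59 counts). Untreated cells were at 1.56 and 2.32 CPM, and GSK591 gave 2.15 and 2.64 CPM at 2 days, 5.28 and 5.92 CPM at 4 days and 4.30 and 4.56 CPM at 7 days. The 2 day libraries overlapped the untreated ones, and those of 4 and 7 days lay above them. Against untreated cells the change was 0.30 ± 0.36 at 2 days (adjusted p = 0.711), 1.51 ± 0.31 at 4 days (2.86-fold, adjusted p = 0.000310) and 1.18 ± 0.33 at 7 days (2.26-fold, adjusted p = 0.0110). Among the 5 genes tested, 0 were called at 2 days, beside 5.64% of all genes, and CDH1 was the 1 called at 4 and at 7 days, beside 17.2% and 13.2%. The 4 day call held in every alternative run (1.27 to 1.92, adjusted p at most 0.0231). The 7 day call did not: the adjusted p was 0.151 without untreated replicate 1, 0.0531 and 0.0677 without either GSK591 library, 0.0523 with DESeq2 and 0.0766 with total counts as the only scaling.

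MS023 gave CDH1 levels of 2.64 and 1.85 CPM at 2 days, 3.20 and 3.06 CPM at 4 days and 2.20 and 2.10 CPM at 7 days. None of these differed from untreated cells by the test: 0.20 ± 0.35 (adjusted p = 0.787), 0.68 ± 0.32 (adjusted p = 0.162) and 0.14 ± 0.34 (adjusted p = 0.836), where 10.4%, 14.2% and 13.6% of all genes were called. Compared directly, GSK591 at 7 days exceeded MS023 at 7 days by 1.04 ± 0.30 (adjusted p = 0.0215; 9.38% of all genes were called). This call was lost when any 1 of the 4 libraries was left out (adjusted p = 0.0948 to 0.124) and with DESeq2 (0.116), and with total counts as the only scaling the difference was -0.0094, while the median of all genes was then -1.07.

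The widest contrast for CDH1 was between long and short GSK591 under Dex. The libraries were at 4.41 and 6.65 CPM after 7 days of GSK591 and 3 h of Dex, and at 1.33 and 1.14 CPM after 3 h of both, a difference of 2.15 ± 0.34 (4.43-fold, adjusted p = 6.98e-06; 12.2% of all genes were called). It held in every alternative run, at 1.83 to 2.42. The same contrast for MS023 was 0.34 ± 0.32 (2.93 and 2.66 against 1.42 and 2.94 CPM, adjusted p = 0.514). Dex for 3 h changed CDH1 by 0.32 ± 0.28 after GSK591 (adjusted p = 0.577) and by 0.38 ± 0.30 after MS023 (adjusted p = 0.511), so a rise was not detectable. An exon of the opposite-strand gene AC099314.1 overlaps those of CDH1 by 347 bases. The genes most like CDH1 over the 30 libraries were DUSP15, a dual-specificity phosphatase (r = 0.827), LRP1, a large endocytic receptor (0.821), and LYNX1 (0.816).

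CDH2 (ENSG00000170558.8, chr18:27950966-28177446, minus strand) ranged from 3.32 to 10.7 CPM (32 to 109 counts) and passed the test in 2 of 22 comparisons. GSK591 gave 4.30 and 5.06 CPM at 2 days, 6.15 and 6.32 CPM at 4 days and 8.49 and 8.31 CPM at 7 days, against 6.78 and 6.35 CPM in untreated cells. Thus CDH2 lay below untreated cells at 2 days and above at 7 days, with -0.48 ± 0.26 and 0.36 ± 0.24, neither of which passed the test (adjusted p = 0.313 and 0.364). From 2 to 7 days the difference was 0.84 ± 0.26 (adjusted p = 0.0314; 8.39% of all genes were called). The call was lost in each of the 4 fits that left out 1 library (0.73 to 0.96, adjusted p = 0.0992 to 0.206), with DESeq2 (0.0988) and with total counts as the only scaling (0.52, adjusted p = 0.322).

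The second call for CDH2 rested on 1 library. Dex with MS023 for 3 h was at 5.36 and 10.7 CPM, and MS023 for 7 days followed by Dex at 3.95 and 3.32 CPM, a difference of -1.15 ± 0.24 (adjusted p = 0.000624; 16.5% of all genes were called). Without replicate 2 of Dex with MS023 it was -0.56 (adjusted p = 0.268). That library had a mitochondrial share of 61.0% against 71.2% in its partner, and the agreement of that pair of libraries was the lowest of the 15 groups (r = 0.922 over 11117 genes). The part of the mitochondrial share in the result was not tested. MS023 alone gave CDH2 differences from untreated cells of -0.42 ± 0.25, -0.56 ± 0.24 and -0.30 ± 0.24 at 2, 4 and 7 days, none of which passed the test (adjusted p = 0.305, 0.117 and 0.447). Dex for 3 h gave -0.23 ± 0.24 after GSK591 (adjusted p = 0.642) and -0.55 ± 0.24 after MS023 (adjusted p = 0.152). The latter value depended on single libraries, with -0.86 to -0.14 over the fits that left out 1. The 2 libraries of MS023 for 7 days without Dex lay apart at 4.04 and 6.66 CPM, and without replicate 1 of them the value was -0.86. An exon of the opposite-strand gene AC110015.1 overlaps those of CDH2 by 136 bases. The genes most like CDH2 were CD44, a hyaluronan receptor (r = 0.865), MAP1B, a microtubule-associated protein (0.846), and PTPRF, a receptor phosphatase (0.822).

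**Figure D4:**
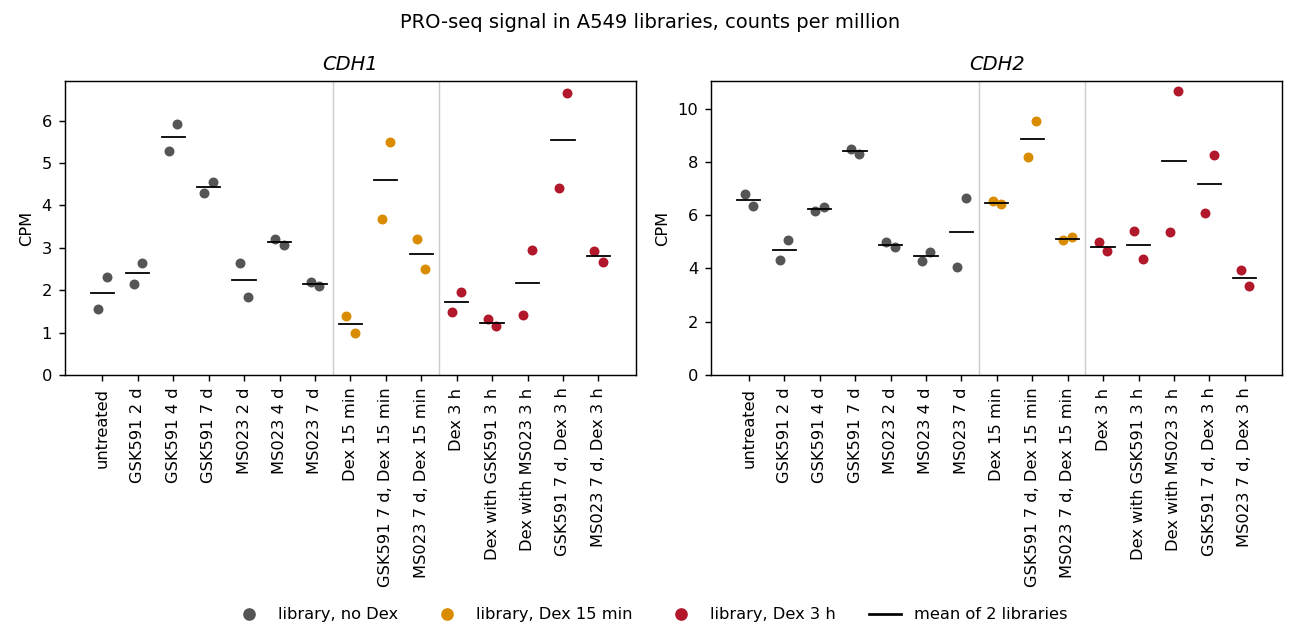
CDH1 and CDH2 in CPM in each of the 30 libraries, by group; points are libraries, coloured by Dex time, and black lines are means of 2 libraries. CDH1 is at 4.30 to 5.92 CPM after 4 or 7 days of GSK591 against 1.56 and 2.32 CPM in untreated cells, and 1 library of Dex with MS023 stands apart for CDH2 at 10.7 CPM.

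Per kilobase of exon the order of levels differed between untreated cells and Dex alone for 3 h. These groups chose TFCP2L1 and CDH16, so the places of both genes are a description. The counted feature type is not given, so exon length may not be the counted length. In untreated cells UBP1 (4.04 CPM per kb) and TFCP2 (3.82) led, followed by CDH2 (1.33), CDH1 (0.314), TFCP2L1 (0.219), CDH16 (0.130), GRHL1 (0.127) and GRHL2 (0). After Dex alone for 3 h CDH16 (4.29) was highest, followed by UBP1 (3.58), TFCP2L1 (3.35), TFCP2 (2.69), CDH2 (0.973), CDH1 (0.279), GRHL1 (0.188) and GRHL2 (0). In libraries outside that choice, CDH16 was at 0.177 CPM per kb after 7 days of MS023 and at 4.87 when Dex followed for 3 h. TFCP2L1 was at 0.244 and 3.69 there. Neighbours in the orders above, such as CDH16 and GRHL1 in untreated cells, were not tested against each other.

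The authors' deposited tables compare each treatment with untreated cells and come from another counting, in which all members but GRHL1 were listed. The authors' mean signal was 0.990 times the mean count of the count table for UBP1, 1.49 times for CDH16, 2.87 times for TFCP2, 4.15 times for TFCP2L1, 7.00 times for CDH2, 8.06 times for CDH1 and 8.55 times for GRHL2. In the same order, the length of the gene was 5.43, 2.97, 20.8, 7.32, 45.8, 15.9 and 29.3 times that of its exons. In the authors' deposited tables CDH1 was called at every time of both inhibitors, with 1.05, 1.74 and 1.69 at 2, 4 and 7 days of GSK591 and 0.70, 1.10 and 1.00 for MS023. There CDH1 passed an adjusted p of 0.05 in 10 of 14 tables. The share of all genes called in these tables was 14.7%, 26.8% and 23.8% at 2, 4 and 7 days of GSK591, and 17.7%, 22.5% and 22% for MS023. It was 3.93% and 21.9% at 15 min and 3 h of Dex alone, 21.7% and 19.8% for Dex with GSK591 and with MS023, 23.5% and 34.2% at 15 min and 3 h of Dex after GSK591, and 24.4% and 30% after MS023.

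For CDH2 the authors' deposited tables gave -0.53, -0.37 and 0.19 at 2, 4 and 7 days of GSK591, and -1.02, -0.76 and -0.36 for MS023, with all but GSK591 at 7 days called. GRHL2 was called in 3 of the authors' deposited tables, all with MS023 for 7 days: alone (1.77, adjusted p = 0.0130), followed by Dex for 15 min (2.90, adjusted p = 0.000228) and followed by Dex for 3 h (1.15, adjusted p = 0.0441). For TFCP2L1 and CDH16 these tables rest on the untreated libraries that chose both genes, so their values there are a description. TFCP2L1 had 4.12 to 4.52 in the authors' deposited tables with 3 h of Dex. At 15 min it had 0.75 with Dex alone, 1.28 after GSK591 and 1.55 after MS023. Without Dex it had 0.58, 0.65 and 0.44 at 2, 4 and 7 days of GSK591, and 0.036, 0.25 and 0.68 for MS023. In the same orders CDH16 had 7.26 to 7.93 at 3 h and 0.016, 2.83 and 2.45 at 15 min. Without Dex CDH16 had 0.035, 2.08 and 2.38 for GSK591, and 0.010, 0.11 and 0.67 for MS023. TFCP2 was called in 1 of the authors' deposited tables and UBP1 in 0. These 14 tables share the untreated libraries. In them GRHL2 had 0.78 ± 1.32 for Dex with MS023 beside an authors' adjusted p of 0.0710, so their values and SE do not give their p-values. Whether the authors' fit pulled fold changes towards 0 was not tested, so their values near 0 need not mean no change.

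**Figure D5:**
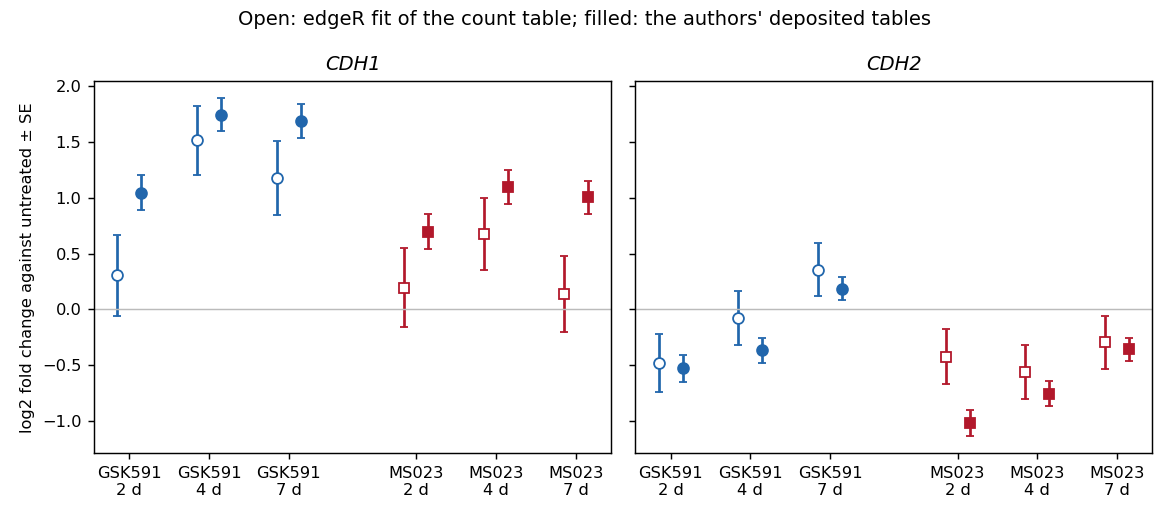
Log2 fold change ± SE of CDH1 and CDH2 against untreated cells at 2, 4 and 7 days of GSK591 and MS023; open symbols are the edgeR fit of the count table and filled symbols the authors' deposited tables. For CDH1 the authors' values lie above those of the count table at every time, with 1.00 against 0.14 for MS023 at 7 days. The fits differ as well as the counting, and the part of each in these differences was not tested.

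Genes that act with cadherins and grainyhead factors were described from lists that were chosen with earlier results of these data known. Of 30 epithelial junction genes and grainyhead targets, 26 were tested. With GSK591 for 7 days, 9 of them were called higher and 0 lower, beside 13.2% of all genes called either way, with a median of 0.55 against -0.0049 for all genes. They included SPINT1, a protease inhibitor (1.39 ± 0.46), the pore-forming claudin gene CLDN2 (1.34 ± 0.18) and the keratin gene KRT19 (1.32 ± 0.16). With MS023 for 7 days, 10 were called higher and 1 lower, beside 13.6% of all genes, with a median of 0.35: the claudin gene CLDN3 (1.55 ± 0.34) and the tight junction scaffold TJP3 (1.48 ± 0.24) were higher and CLDN4 lower (-0.53 ± 0.15). Total counts as the only scaling would move MS023 values by about the shift of all genes given above.

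Under Dex for 3 h the junction genes divided. After GSK591, 6 of the 26 were called higher and 4 lower, beside 9.85% of all genes, and after MS023 4 higher and 6 lower, beside 11.1%, with medians of -0.19 and -0.23. MUC1, a cell-surface mucin, rose by 1.49 ± 0.19 and 1.47 ± 0.19 and the claudin gene CLDN7 by 1.23 ± 0.19 and 0.98 ± 0.18. KRT19 fell after both inhibitors, with -1.02 ± 0.16 and -1.20 ± 0.16, and CLDN1 (-1.22 ± 0.19) and CLDN2 (-1.22 ± 0.18) were among those called lower after GSK591. CDH1, as given above, was not called in either.

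Of 9 catenin genes, which link cadherins to the cytoskeleton, 9 were tested, and 2 were called higher and 1 lower at 3 h of Dex after each inhibitor, beside 9.85% of all genes called either way after GSK591 and 11.1% after MS023. PKP2 (plakophilin) rose by 1.32 ± 0.23 after GSK591 and 1.12 ± 0.22 after MS023, and VCL (vinculin) by 0.61 ± 0.17 and 0.76 ± 0.16. JUP (plakoglobin) fell, with -0.55 ± 0.14 and -1.03 ± 0.13. Of 18 mesenchymal genes and cadherin repressors, 16 were tested. At 3 h of Dex 2 of them were called higher and 0 lower after each inhibitor, with SNAI1 (0.64 ± 0.20) among the 2 after MS023. In cells given GSK591 for 7 days SNAI2, a repressor that binds E2-boxes, was called higher (3.09 ± 0.77, from 0.156 to 1.45 CPM). TGFBI was called lower (-0.69 ± 0.16), and these were the only calls of the list, beside 13.2% of all genes called either way. That count is near the share of all genes. At 7 days of MS023, 3 were called higher, SNAI2 among them (2.67 ± 0.76), and 5 lower, TGFBI (-1.23 ± 0.16) and COL5A1 (-0.96 ± 0.14) among them. The list median was -0.37, and 13.6% of all genes were called either way. SNAI2 and CDH1 were both called higher after 7 days of GSK591 in the count table, and a link between them was not tested. The CDH1 call was lost in several alternative runs, as given above, and the 0.156 CPM of SNAI2 in untreated cells are few counts.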

How the data were processed

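Values came from the processed files the authors deposited for 30 PRO-seq libraries of A549 cells. The deposited table of raw counts covers 58780 genes and was made with Subread featureCounts 2.0.1 on hg38 per the submitters' processing notes. The aligner, the feature type and the use of strand are not given in the sources used here. All gene identifiers matched GENCODE 29, which supplied coordinates and exon lengths. The 14 comparison tables of 28873 genes carry DESeq2 column names per the file headers: the mean signal, the log2 fold change and its standard error, and the p-value with its adjusted form are the authors' values.

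Counts were tested with edgeR 4.0.16 (R 4.3.3): quasi-likelihood test, TMM scaling, filterByExpr (minimum count 10, minimum total 15, 22919 genes kept), all 15 groups in 1 fit with 15 residual degrees of freedom, Benjamini-Hochberg adjustment over all genes and a threshold of 0.05. The common biological coefficient of variation was 10.6%. Total counts of 8441211 to 13069598 per library set the precision. The procedure was tested on simulated data.

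The members and gene lists were chosen with earlier results of these data known. TFCP2L1 and CDH16 were tested only in the 11 comparisons that share no library with Dex 3 h against untreated, and the other members in 22. Named genes are all members, GRHL3, at most 3 called genes per list and direction in 4 comparisons, and the 3 genes most like each of TFCP2L1, CDH16, CDH1 and CDH2; some genes of the kidney tubule list are not reported here. Alternatives were DESeq2 size factors, scaling by total counts alone, DESeq2 1.42.0, leaving the filter out, a block for the replicate number, a fit of the compared groups only, no mitochondrial or ribosomal RNA genes, and leaving out each replicate.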

Additional observations from a re-analysis of the deposited data

Results flagged for a closer look

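In cells without Dex, direct tests between treatment times or inhibitors gave 3 differences. CDH2 differed between 7 and 2 days of GSK591 by 0.84 on the log2 scale, TFCP2 between 7 and 2 days of MS023 by 0.51, and CDH1 between GSK591 and MS023 at 7 days by 1.04. All 3 were lost with DESeq2 and in each of the 4 fits that left out 1 library. In the same order these comparisons called 8.39%, 13.2% and 9.38% of all genes. Long against short inhibition under Dex, given above, called CDH1 for GSK591 (2.15) and CDH2 for MS023 (-1.15). The CDH1 difference held in every alternative run, and the CDH2 difference rested on 1 library.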

How the results depend on the processing

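The depth of 2541528 to 3957508 counts outside the mitochondrial chromosome and 2 libraries per group limit what could be called, above all for GRHL1, GRHL2, CDH1 and CDH16. Of 254 alternative counts of called members over 22 comparisons, 217 stayed within 1.5 times the count reported, and of 643 alternative values of single genes with a test 555 kept their direction and their side of the threshold. Of 181 alternative values given without a test, 177 moved by less than the spread between replicates. The rises of TFCP2L1 and CDH16 at 3 h of Dex after either inhibitor kept both in every alternative run.

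With total counts as the only scaling, the called members numbered 0 for Dex 15 min after MS023, 0 for GSK591 7 days against 2 days and 0 for GSK591 7 days against untreated, 2 for GSK591 against MS023 at 7 days, 4 for long against short MS023 under Dex, and 1, 3 and 4 for MS023 at 2, 4 and 7 days. That scaling also reversed CDH16 with acute GSK591 against acute MS023 (-0.033), TFCP2 at 3 h of Dex after GSK591 (0.18), UBP1 at 7 days of MS023 (0.99), CDH1 for GSK591 against MS023 at 7 days (-0.0094), and CDH2 at 4 days of GSK591 (0.35) and at 2, 4 and 7 days of MS023 (0.25, 0.19 and 0.72), and gave UBP1 -0.0083 at 3 h of Dex after MS023. The median of all genes moved by up to 1.07 with it. UBP1 in that comparison, 0.00080 as reported, was also -0.0020 with DESeq2 size factors, -0.019 without the filter and -0.0024 with DESeq2.

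DESeq2 gave 0 called members for GSK591 against MS023 at 7 days, for 7 against 2 days of either inhibitor and for GSK591 at 7 days, and called fewer genes overall (1332 and 1477 in place of 2258 and 2543 at 3 h of Dex after GSK591 and MS023). Without the filter 2 members were called for GSK591 against MS023 at 7 days. The compared groups alone gave 3 there, 3 for long against short GSK591 under Dex, 0 for long against short MS023 and 1 at 2 days of MS023. DESeq2 size factors gave 1 and the fit without mitochondrial and ribosomal RNA genes 1 at 2 days of MS023. The cause was not tested.

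Leaving out 1 replicate gave 0 to 1 called members for Dex 15 min after MS023, GSK591 against MS023 at 7 days, acute GSK591 against acute MS023, long against short MS023, GSK591 at 7 days and Dex with MS023 against Dex, and 0 in each for 7 against 2 days of either inhibitor. Values with a test that crossed 0 were TFCP2 at 3 h of Dex after GSK591 (-0.31 to 0.16) and at 7 days of MS023 (-0.065 to 0.12), UBP1 at 3 h of Dex after MS023 (-0.10 to 0.11) and at 7 days of GSK591 (-0.14 to 0.30), GRHL1 at 3 h of Dex after GSK591 (-1.07 to 0.33) and MS023 (-0.47 to 0.33), CDH1 at 3 h of Dex after GSK591 (-0.0040 to 0.59), for long against short MS023 (-0.071 to 0.97) and at 2 and 7 days of MS023 (-0.079 to 0.52, -0.11 to 0.46), and CDH2 at 7 days of MS023 (-0.70 to 0.018). Values without a test that crossed 0 were TFCP2L1 (-0.17 to 0.13) for Dex with MS023 against Dex, CDH16 (-0.074 to 0.052) for Dex with GSK591 against Dex, the 3 h response after MS023 minus that without inhibitor for TFCP2L1 (-0.22 to 0.16) and CDH16 (-0.66 to 0.35), and CDH1 at 3 h of Dex against untreated (-0.44 to 0.13).

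The replicate numbers do not pair the samples: over 105 pairs of groups the deviations of equal numbers correlated at -0.450 to 0.484, with a median of 0.0207. With the replicate number as a block, 2 members were called at 3 h of Dex after each inhibitor, as without it, and no call of a member changed.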

Other observations

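Of 22 genes typical of kidney tubule, a tissue in which TFCP2L1 and CDH16 are known, 13 passed the filter and were tested. At 3 h of Dex after GSK591 the developmental factor PAX2 was called higher (1.28 ± 0.40). After MS023 the water channel gene AQP3 (2.15 ± 0.29, from 2.18 to 9.74 CPM) and the sodium channel subunit SCNN1A (0.37 ± 0.11) were called higher. At 7 days of MS023 without Dex, AQP3 (3.29 ± 0.56), PAX2 (1.96 ± 0.37) and PAX8 (0.84 ± 0.18) were among 4 called higher, beside 13.6% of all genes called either way, and GATA3 (-1.05 ± 0.25) was lower. At 7 days of GSK591 the 1 gene called was PAX8 (0.69 ± 0.19), beside 13.2% of all genes.

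Of 23 other cadherins, 15 were tested, and at 3 h of Dex 1 was called after GSK591 and 3 after MS023, beside 9.85% and 11.1% of all genes called either way, so the first share is near that of all genes. All of these were lower. CDH23, the cadherin of hair cell tip links, was called lower in both (-0.49 ± 0.15 and -0.78 ± 0.14, from 38.3 to 27.3 and from 44.1 to 25.7 CPM), and CDH7 (-3.09 ± 0.86) and CDH6 (-2.27 ± 0.69) were lower after MS023, from 0.715 to 0.0735 and from 1.11 to 0.220 CPM, which are few counts. At 7 days of MS023, 3 of the 15 were called higher and 1 lower, beside 13.6% of all genes called either way. The endothelial cadherin CDH5 (2.37 ± 0.76), DSC2 (0.98 ± 0.26) and CDH24 (0.95 ± 0.27) were higher and CDH4 lower (-0.93 ± 0.30). CDH5 went from 0.217 to 1.15 CPM, which are few counts. At 7 days of GSK591, 0 of the 15 were called, beside 13.2% of all genes.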
